A study of Rattus norvegicus with 4 samples.

Results

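The interferon response genes are a set of 43 genes whose transcripts are induced by interferons. They were followed here in whole ovaries of 4-day-old rat pups after 2 days of organ culture. Of the 43, 39 had a probe set on the array that carries that gene symbol alone, and Gbp5, Ifi47, Rigi and Xaf1 are not analysed here. The 39 genes were measured by 51 probe sets of 31042, and each gene is given by its brightest probe set over the 4 arrays, chosen by its mean level alone. GDNF samples came from ovaries cultured with glial cell line-derived neurotrophic factor, a secreted ligand of the Ret receptor, at a dose not given in the sources used here. Control samples came from ovaries cultured with no added factor. There were 2 samples of each, numbered 1 and 2, and each was RNA of 6 to 10 pooled ovaries on 1 Affymetrix rat array, with no animal giving a pair of ovaries to the same group. All ovaries shared the serum-free medium, which held albumin, albumax, insulin (200 ng/ml), transferrin, ascorbic acid and antibiotics. Titles and descriptions call 2 samples GDNF, while the protocol text of the same 2 repeats the wording for untreated ovaries. The labels do not say whether the numbers mark litters, culture days or batches. All p-values therefore measure the spread between these pools, which may be technical. The set itself was proposed with the values of these samples by replicate number in view.

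Interferons are secreted proteins made when cells sense foreign or misplaced nucleic acid or other danger signals. Type I interferons act through receptors that activate transcription factors, among them Stat2 and Irf9, that bind a DNA element named the interferon-stimulated response element (ISRE), and interferon gamma acts on another element, the gamma-activated site (GAS). The products of the induced genes block steps of virus replication, sense RNA, and process peptides for display on MHC class I molecules. The roles given below are known from human and mouse cells.

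Each value is a MAS5 signal, a linear array intensity scaled by the authors to the same trimmed mean on each array. All 39 genes passed the filter on dim probe sets (a mean signal of about 21.4). Brightness depends on the probes as well as on the transcript, so signals are compared within a probe set only. Differences are on the scale of log2(signal + 1), which understates those of dim genes. The 8 brightest probe sets were those of Bst2, Ifi27, Ifitm3, Ifitm1, Isg15, Parp9, Gbp2 and Psmb9. Bst2, or tetherin, which holds budding virus at the cell surface, had a signal of 2546 and 3321 in GDNF replicates 2 and 1, and 3097 and 2751 in control replicates 2 and 1. Its samples overlapped both by treatment and by number. Ifi27 had 2403 and 2714 in GDNF replicates 2 and 1, and 2649 and 3056 in control replicates 2 and 1, so that replicate 2 was the lower of each pair. Irf8, a transcription factor of myeloid cells, lay between 19.0 and 29.8 in all samples, close to the filter.

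Transcripts of the interferon response were lower in both samples numbered 2 than in both numbered 1 for most of the 39 genes, under GDNF and in control medium alike. In the samples numbered 2, the mean of 38 of the 39 was lower, against 52.5% of the 18625 probe sets tested and 44.8% with 1 probe set per gene, and the median log2 difference was -0.26, against -0.01 over all probe sets tested. For 25 of the 39 (64.1%) both samples numbered 2 lay below both numbered 1, against 22.6% of all probe sets tested and 18.1% with 1 probe set per gene. Irf8 was the 1 gene with no overlap in the other direction (2.56%, against 20.9% of all probe sets tested and 25.8% with 1 per gene). The antiviral genes Rsad2, Ifit3, Mx1, Isg20, Herc6, Irf7, Isg15, Irgm and Ifit2 had no overlap and a mean at least 1.5-fold lower in the samples numbered 2. These are 9 of 39 (23.1%), against 3.77% of all probe sets tested and 2.16% with 1 probe set per gene. None was as far higher without overlap (0 of 39, against 0.875% of all probe sets tested and 0.905% with 1 per gene). This difference is a description and has no test, because the choice of the set used it.

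**Figure D1:**
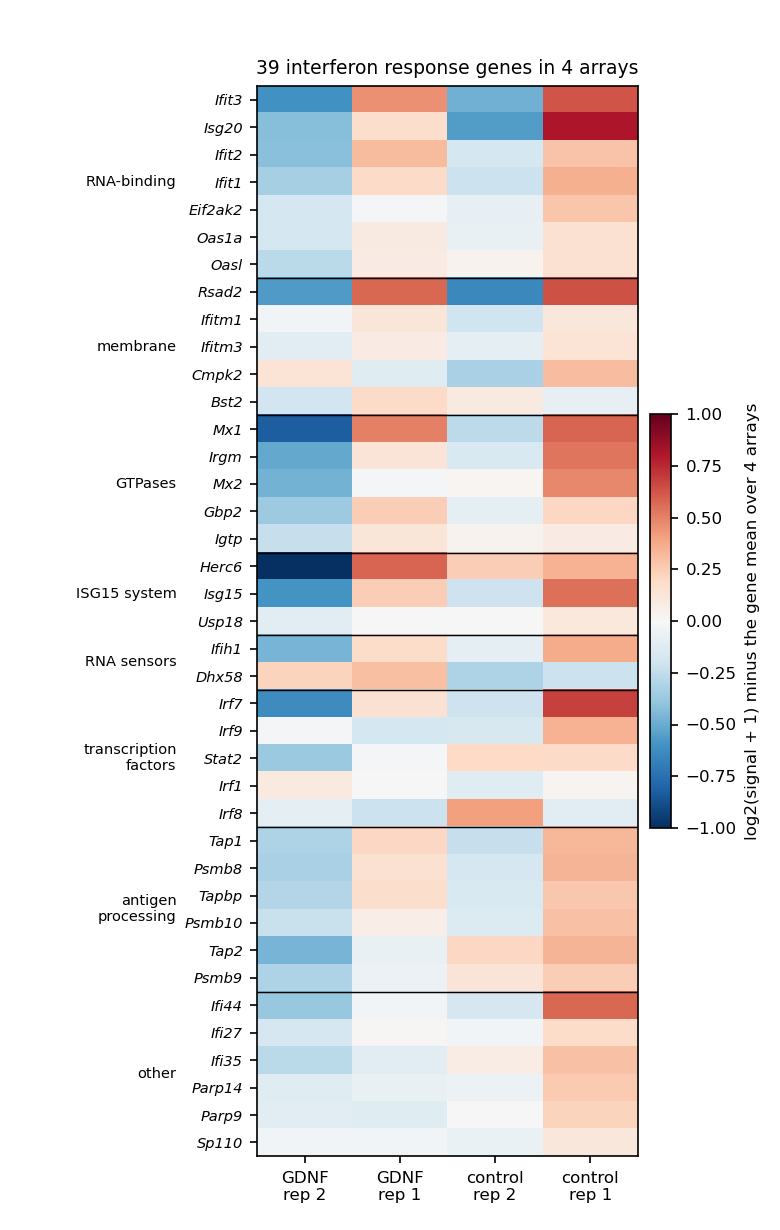
Level of each of the 39 genes (rows, grouped by role) in the 4 arrays (columns), as log2(signal + 1) minus the mean of the gene over the arrays; red is above and blue below that mean, and values past 1 in either direction have the end colour. The column of GDNF replicate 2 is mostly blue, with the lowest signal of 29 of the 39 genes, and that of control replicate 1 mostly red, with the highest of 29.

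GDNF replicate 2 had the lowest signal for 29 of the 39 genes (74.4%, against 32.1% of all probe sets tested), and control replicate 1 had the highest for 29 (74.4%, against 26.2%). Set against their average over the 4 arrays, the 39 genes had a mean of -0.30 and 0.11 in GDNF replicates 2 and 1, and -0.10 and 0.29 in control replicates 2 and 1, in log2 units. The same order of the numbers was seen in each treatment. Replicate 2 minus replicate 1 had a median of -0.35 in GDNF samples and -0.32 in control samples, and 32 of the 39 genes (82.1%) were lower in replicate 2 in both, against 30.9% of all probe sets tested and 26.3% with 1 per gene. The GDNF pair and the control pair share no sample, but the set was proposed with the values of both in view. Their likeness in these genes is therefore a description only. Across the 39 genes their differences correlated at r = 0.47 (Spearman's rho 0.50), and across all 18625 probe sets at r = 0.32 (rho 0.28). These are correlations across genes, which are not independent replicates. Leaving out any 1 sample gave a median difference between the numbers of -0.43 to -0.23, with 34 to 36 of the 39 genes lower in number 2. Over all probe sets tested that median then lay between -0.02 and -0.002.

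The median signal of an array was 36.7 and 38.6 in GDNF and control replicate 2, below both arrays numbered 1, of which the brighter had 41.1. Median centring of the arrays moved the median number difference of all probe sets tested to 0.09 and that of the 39 genes to -0.15. With the centring, 34 of the 39 were lower in number 2, and Dhx58 and Parp9 had 0.02 and 0.0057. Ifit2 and Irgm then had -0.49 and -0.56, short of 1.5-fold (0.585 in log2). For beta-actin the control probe set at the 3' end over that at the 5' end was 3.61 and 3.34 in GDNF and control replicate 2, and 2.62 and 3.76 in GDNF and control replicate 1. The same ratio for Gapdh was 1.44 and 1.22 in GDNF and control replicate 2, and 1.11 and 1.28 in GDNF and control replicate 1. The beta-actin ratios overlapped between the numbers and so did those of Gapdh. The part of array brightness and RNA quality in the difference was not tested.

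Among proteins that bind or cut RNA, all 7 genes had no overlap and lower signals in the samples numbered 2. Over all probe sets tested that share was 22.6%, and 18.1% with 1 per gene. Ifit3, a partner of Ifit1 in the binding of viral RNA, had a signal of 52.5 and 57.2 in GDNF and control replicate 2, against 111 and 125 in GDNF and control replicate 1. Its log2 difference was -1.09, with 0.483% of all probe sets tested lower still. Isg20, an RNA exonuclease, had 65.8 and 59.8 in GDNF and control replicate 2, against 100.3 and 156 in GDNF and control replicate 1 (-0.98). For both genes each sample numbered 2 was below each numbered 1. Ifit2 had 101 and 120.1 in GDNF and control replicate 2, against 169 and 165 in GDNF and control replicate 1 (-0.60), with -0.81 in its dimmer probe set. Ifit1, which recognises the cap of viral RNA, had -0.54. Smaller differences were those of Eif2ak2, the kinase PKR that halts translation (-0.26), of Oas1a, which makes the oligoadenylates that activate RNase L (-0.25), and of the related Oasl (-0.24).

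The widest difference of the 39 was in Rsad2, or viperin, an enzyme that makes a chain-terminating nucleotide. It had a signal of 130 and 123 in GDNF and control replicate 2, against 286 and 298 in GDNF and control replicate 1 (a log2 difference of -1.21). The samples of a number lay close together, and 0.322% of all probe sets tested had a lower difference. Cmpk2, a nucleotide kinase whose gene lies next to Rsad2, had -0.19 with overlap, and -0.53 without overlap in its dimmer probe set. The membrane proteins Ifitm1 and Ifitm3, which block fusion of virus with the cell, differed by less than 1.5-fold, also without overlap. Ifitm3 had 2523 and 2547 in GDNF and control replicate 2, against 2886 and 2994 in GDNF and control replicate 1 (-0.21), and the neighbouring Ifitm1 had 1660 and 1475 in GDNF and control replicate 2, against 1840 and 1828 in GDNF and control replicate 1 (-0.23). In this role group 3 of 5 genes had no overlap, all lower in number 2 (against 22.6% of all probe sets tested).

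Of the GTPases, Mx1, which assembles on viral ribonucleoproteins, had a signal of 111 and 165 in GDNF and control replicate 2, against 281 and 297 in GDNF and control replicate 1 (-1.08). Mx2, separated from it by 1 coding gene, had 288 and 405 in GDNF and control replicate 2, against 395 and 558 in GDNF and control replicate 1 (-0.46), and its numbers overlapped. That difference was -0.21 without either control replicate 1 or GDNF replicate 2, and -0.70 without control replicate 2 and -0.71 without GDNF replicate 1. Irgm, an immunity-related GTPase of vacuole membranes, had 74.0 and 95.2 in GDNF and control replicate 2, against 116 and 154 in GDNF and control replicate 1 (-0.67). The guanylate-binding protein Gbp2 had 372 and 450.4 in GDNF and control replicate 2, against 571 and 556 in GDNF and control replicate 1 (-0.46). Igtp had -0.20. Of these 5 genes all but Mx2 were lower in number 2 with no overlap (against 22.6% of all probe sets tested).

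Isg15, a ubiquitin-like protein that is joined to other proteins, had a signal of 469.9 and 614 in GDNF and control replicate 2, against 843 and 1043 in GDNF and control replicate 1 (-0.80). Usp18, the protease that removes it, had -0.10 with overlap. Herc6, its ligase in mice, had 13.4 and 37.6 in GDNF and control replicate 2, against 47.8 and 40.5 in GDNF and control replicate 1 (-0.93). That difference rests mainly on GDNF replicate 2, and was -0.22 without it. Of the RNA sensors, Ifih1 (MDA5) had 20.9 and 27.3 in GDNF and control replicate 2, against 33.2 and 38.0 in GDNF and control replicate 1 (-0.55), while Dhx58 (LGP2) had -0.08 with overlap.

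Among the transcription factors, Irf7, which drives the interferon alpha genes, had a signal of 199.7 and 269 in GDNF and control replicate 2, against 344 and 499 in GDNF and control replicate 1 (-0.84). The other 4 differed by less. Irf9 had -0.17, Stat2 -0.17 and Irf1 -0.02, each with overlap, and Irf8 had 0.32. The dimmer probe set of Irf9 had -0.41, also with overlap. Stat2 had 0.12 once GDNF replicate 2 was omitted.

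Genes for peptide processing and loading differed by less than 1.5-fold, and 4 of 6 had no overlap (against 22.6% of all probe sets tested). Psmb8 (-0.50) and Psmb10 (-0.36), catalytic subunits of the immunoproteasome, Tap1 (-0.53), a subunit of the peptide transporter, and Tapbp, which docks it to MHC class I (-0.45), were lower in both samples numbered 2. Tap2, Psmb8, Tap1 and Psmb9 follow each other in the RefSeq gene order with no coding gene between them. The values of these neighbours were not alike: Tap2 had -0.26 and Psmb9 -0.18, both with overlap. Without GDNF replicate 2 they had 0.08 and 0.03, against -0.60 and -0.40 without control replicate 2. Of the 6 remaining genes, Ifi44 had 245 and 284 in GDNF and control replicate 2, against 313 and 474 in GDNF and control replicate 1 (-0.55), and its difference was -0.25 without control replicate 1 and -0.84 without GDNF replicate 1. The others, Ifi27, Ifi35, Parp14, Parp9 and Sp110, lay between -0.19 and -0.09, of which Ifi27 and Sp110 had no overlap. For Sp110 the numbers were barely apart, with 348.0 and 348.2 in GDNF replicates 2 and 1. Dimmer probe sets differed more, without overlap: those of Sp110 had -0.53 and -0.78, and that of Parp14 -0.30.

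**Figure D2:**
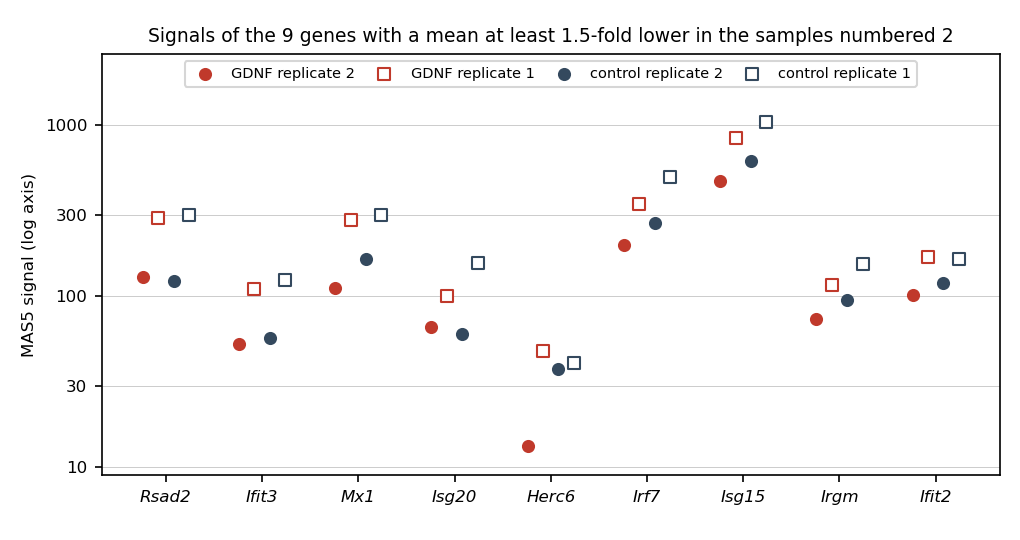
Signal (log axis) in each array of the 9 genes with no overlap and a mean at least 1.5-fold lower in the samples numbered 2, ordered by their log2 difference; filled circles are replicate 2, open squares replicate 1, red GDNF and dark blue control. Filled circles lie below both open squares of the same gene for each of the 9, and for Herc6 1 filled circle, GDNF replicate 2, lies far below the other samples.

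Promoters of the most different members are shown because the ISRE is the element that many of these genes share. The RefSeq promoter table (GRCr8) held 32 of the 39 genes, and the 250 bases before each start were searched on both strands for an ISRE core (GAAA, any 2 bases, GAAA) and a GAS core (TTC, any 3 bases, GAA). The ISRE core was in 20 of the 32 (62.5%), against 3.41% of the 33469 promoters of the table, and the GAS core in 10 (31.2%), against 7.67%. Of the 9 genes of the widest difference, 7 were in the table and 5 of these held the ISRE core (71.4%), as did 15 of the other 25. A match of one core overlapped a match of the other in 1 of the 32. These counts have no test. A match is a run of letters and not a measured binding site. The 5 promoters are printed on the strand of the gene, with the ISRE core in capitals.
Rsad2 (chr6:48788121-48788370, minus strand): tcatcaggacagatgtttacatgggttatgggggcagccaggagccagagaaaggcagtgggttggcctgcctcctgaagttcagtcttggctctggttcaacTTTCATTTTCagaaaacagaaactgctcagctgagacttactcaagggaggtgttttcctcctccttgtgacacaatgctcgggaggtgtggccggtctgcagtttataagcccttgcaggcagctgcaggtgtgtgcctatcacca
Ifit3 (chr1:241527076-241527325, plus strand): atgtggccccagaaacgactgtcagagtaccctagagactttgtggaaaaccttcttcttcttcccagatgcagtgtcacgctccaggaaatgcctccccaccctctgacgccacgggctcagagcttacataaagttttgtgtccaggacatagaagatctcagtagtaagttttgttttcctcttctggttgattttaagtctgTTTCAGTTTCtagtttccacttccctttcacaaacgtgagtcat
Isg20 (chr1:142239809-142240058, plus strand): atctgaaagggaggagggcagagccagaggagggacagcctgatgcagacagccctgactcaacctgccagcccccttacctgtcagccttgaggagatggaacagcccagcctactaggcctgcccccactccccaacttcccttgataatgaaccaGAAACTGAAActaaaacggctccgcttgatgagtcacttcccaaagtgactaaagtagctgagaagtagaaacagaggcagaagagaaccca
Irf7 (chr1:205800024-205800273, minus strand): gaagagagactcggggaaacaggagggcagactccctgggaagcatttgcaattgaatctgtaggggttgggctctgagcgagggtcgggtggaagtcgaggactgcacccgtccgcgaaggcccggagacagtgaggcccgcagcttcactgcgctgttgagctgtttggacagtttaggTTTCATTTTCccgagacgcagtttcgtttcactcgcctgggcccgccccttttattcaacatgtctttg
Irgm (chr10:33742579-33742828, minus strand): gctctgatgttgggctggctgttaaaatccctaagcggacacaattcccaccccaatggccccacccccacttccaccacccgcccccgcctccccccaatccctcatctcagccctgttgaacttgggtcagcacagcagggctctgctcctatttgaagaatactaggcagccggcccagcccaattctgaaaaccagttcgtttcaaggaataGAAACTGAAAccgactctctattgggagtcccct
In these the core began 147 bases before the start of Rsad2, 44 before that of Ifit3, 92 before that of Isg20, 69 before that of Irf7 and 34 before that of Irgm. The promoters of Mx1 and Herc6 held neither core in these 250 bases.

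**Figure D3:**
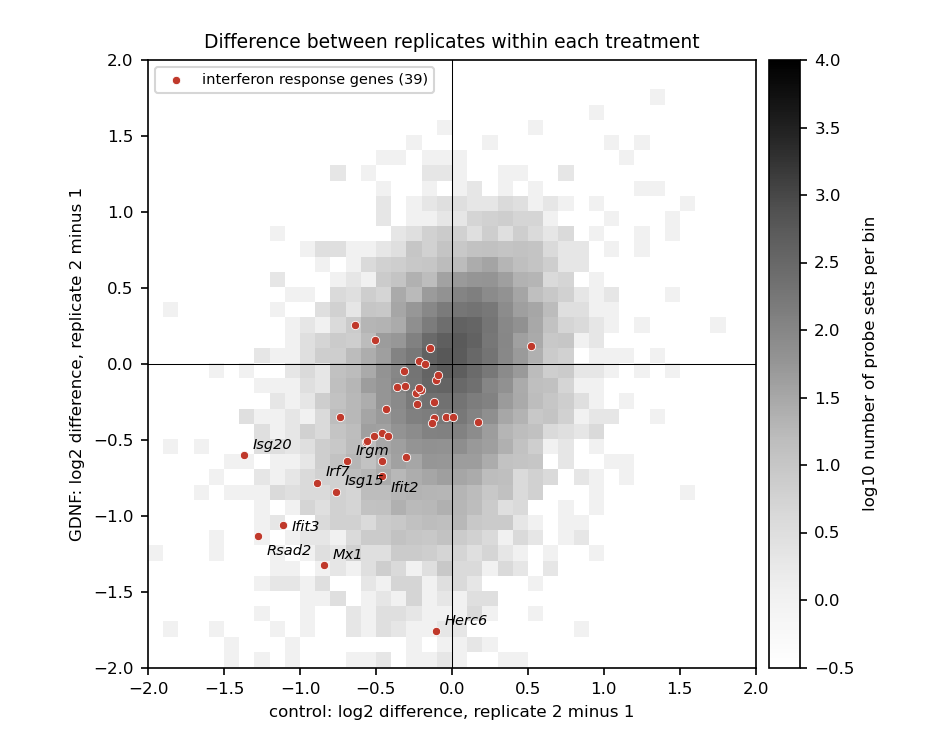
Log2 difference between replicate 2 and replicate 1 in control samples (x axis) and in GDNF samples (y axis); red points are the 39 interferon response genes, named where the mean difference was at least 1.5-fold, and grey squares count the probe sets tested (18580 of 18625 lie inside the axes, darker for more). 32 of the 39 points lie at lower left, where replicate 2 is lower in both treatments.

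Other genes of the pathway were described in the same way. Of 66 further interferon-induced genes, 47 had a probe set and 45 passed the filter. In the samples numbered 2, 36 of the 45 were lower, 22 with no overlap and 6 of those at least 1.5-fold (against 52.5%, 22.6% and 3.77% of all probe sets tested), and the median log2 difference was -0.20. Cxcl10, a chemokine of the interferon gamma response that draws T cells, had a signal of 47.1 and 53.0 in GDNF and control replicate 2, against 239.5 and 201 in GDNF and control replicate 1, a log2 difference of -2.11. The related Cxcl11 had 22.7 and 28.3 in GDNF and control replicate 2, against 86.3 and 60.4 in GDNF and control replicate 1 (-1.47). Epsti1 went the other way, with 86.6 and 54.7 in GDNF and control replicate 2, against 30.1 and 22.4 in GDNF and control replicate 1 (1.37). Of the brightest of the list, Ifitm2 had 2535 and 2531 in GDNF and control replicate 2, against 2595 and 2530.0 in GDNF and control replicate 1 (-0.02). Ly6e had 2005 and 1937 in GDNF and control replicate 2, against 2044 and 2357 in GDNF and control replicate 1 (-0.16). With median centring the median of the 45 was -0.09.

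Of 19 genes of the MHC and its loading complex that passed the filter, 15 were lower in the samples numbered 2 and 12 of these had no overlap (against 52.5% and 22.6% of all probe sets tested). Their median was -0.35, with -0.35 in the GDNF pair and -0.08 in the control pair. RT1-Ba, a class II chain, had -1.99 in the GDNF pair and 0.41 in the control pair. Cd74, the invariant chain of MHC class II, had a signal of 239 and 336 in GDNF and control replicate 2, against 562 and 436 in GDNF and control replicate 1 (-0.80). B2m, the light chain of MHC class I and the brightest of the list, had 4677 and 4493 in GDNF and control replicate 2, against 4208 and 4702 in GDNF and control replicate 1 (0.04), with overlap. The RT1 genes include near-identical copies, so their probe sets may share transcripts.

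Genes upstream of the response had medians closer to 0. Ifnb1 had signals of 0.5 to 1.0 and Ifng 2.3 to 9.7, both below the filter. The receptor chains Ifnar1 and Ifnar2, of type I interferon, had -0.35 and -0.15 by number, and Ifngr1 and Ifngr2, of interferon gamma, 0.05 and 0.08. The 6 ligands and receptors that passed the filter had a median of -0.15, the 10 signal transducers -0.05 and the 10 nucleic acid sensors 0.04. Among the transducers Stat3, which also serves the IL-6 family, had 369 and 373 in GDNF and control replicate 2, against 577 and 561 in GDNF and control replicate 1 (-0.62).

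Macrophage markers were also mostly lower in the samples numbered 2. Of 21 listed, 20 had a probe set and 17 passed the filter, of which 15 were lower in the samples numbered 2 and 9 of these had no overlap (against 52.5% and 22.6% of all probe sets tested), with a median of -0.21. Their summed signal was 1859 and 1912 in GDNF and control replicate 2, against 2191 and 2313 in GDNF and control replicate 1. Ptprc, the leukocyte antigen CD45, had 27.5 and 33.6 in GDNF and control replicate 2, against 34.2 and 40.6 in GDNF and control replicate 1 (-0.29). No macrophage marker was at 0, and Csf1r and Adgre1 had -0.16 and 0.03, both with overlap. The 3 below the filter, Itgam, Cd163 and Cx3cr1, had signals of 2.0 to 18.6. Of 18 lymphocyte markers, 4 of the 16 with a probe set passed the filter, and their summed signal was 322 and 297 in GDNF and control replicate 2, against 229.8 and 256 in GDNF and control replicate 1. These 4 are genes of T cells: Cd3g was higher in number 2 without overlap (0.67) and so was Zap70 (0.36), Cd3d had 0.25 with overlap, and Lck had -0.24. The T cell marker Cd3e (3.6 to 8.4) and the B cell marker Ms4a1 (0.4 to 7.5) lay below the filter, and no lymphocyte marker was at 0. The 7 surface epithelium markers tested had a median of -0.33, with a summed signal of 4745 and 5444 in GDNF and control replicate 2, against 5304 and 6475 in GDNF and control replicate 1. The 8 endothelial markers had -0.06. The part of these cells in the difference of the interferon response genes was not tested. In whole ovaries, fewer cells of a type and less RNA per cell cannot be told apart. The tissue was ovary by its markers: all 7 oocyte markers measured (among them Gdf9 and Zp3) and all 7 granulosa markers (among them Foxl2 and Amh) passed the filter. These lists also differed by number. The oocyte markers had a median of 0.32, with 1 of 7 lower in number 2 (against 52.5% of all probe sets tested). The granulosa markers had -0.17, with 5 of 7 lower. Their part in the difference was not tested either.

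**Figure D4:**
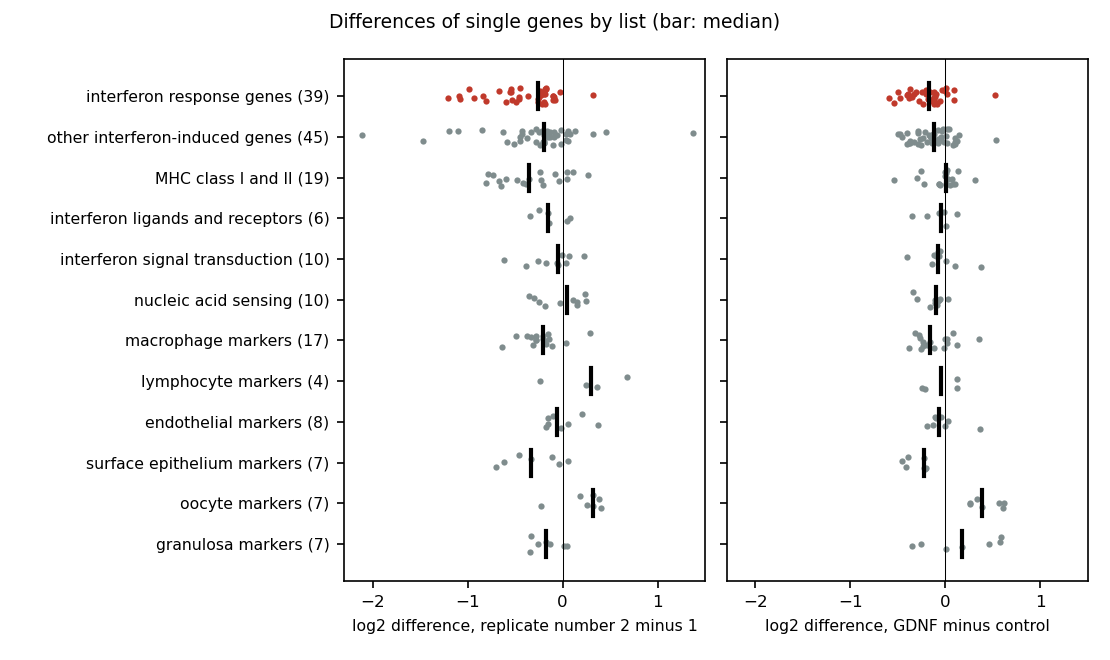
Log2 difference of each gene that passed the filter, by list (number of genes in brackets), between samples numbered 2 and 1 (left) and between GDNF and control samples (right); black bars are list medians. The interferon response genes, the other interferon-induced genes and the MHC list have medians of -0.26, -0.20 and -0.35 by number, and -0.17, -0.12 and 0.00 by treatment.

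The comparison of GDNF with control samples asks whether the factor changed these genes. With 2 samples of each, a gene that does not pass the test may still have changed. None of the 39 passed limma's test with Benjamini-Hochberg adjustment over all probe sets tested (0 of 39, against 0.0% of the 18625), and 4 had an unadjusted p under 0.05 (10.3%, against 2.73% and, with 1 probe set per gene, 3.12%). The mean was lower in GDNF samples for 34 of the 39 (87.2%, against 51.5% of all probe sets tested and 51.4% with 1 per gene), and the median log2 fold change was -0.17 (against -0.01). Within the samples numbered 2 the median was -0.15 with 31 of the 39 lower in GDNF, and within those numbered 1 it was -0.17 with 32 lower. Of all 18625 probe sets tested, 9763 were lower in GDNF within number 2 and 9282 within number 1. With 1 probe set per gene these were 5088 and 5798 of 10608. Leaving out 1 sample unbalances the numbers between the treatments. The median was then 0.03 without control replicate 1 and 0.04 without GDNF replicate 2, with 19 of the 39 lower in each case, and it was -0.38 without control replicate 2 and -0.36 without GDNF replicate 1. Over all probe sets tested these 4 medians were, in the same order, -0.007, 0.003, -0.01 and -0.02. With no overlap, 8 genes were lower in GDNF (20.5%, against 16.6% of all probe sets tested and 18.1% with 1 per gene), which is near the background, and 1 was higher (2.56%, against 13.4% and 13.8%). None was lower by 1.5-fold or more without overlap (0 of 39, against 0.644% and 0.434%).

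Dhx58, a regulator of the RNA sensors, was the 1 gene of the 39 with both GDNF samples above both controls, and it had the smallest p. Its signal was 142 and 149 in GDNF replicates 2 and 1, and 97.7 and 104 in control replicates 2 and 1. The means were 146 ± 5.44 in GDNF and 101 ± 4.67 in control samples (SD, n = 2 each). The log2 fold change was 0.52 (SE 0.15), with a limma p of 0.00906 and an adjusted p of 0.999. Within the samples numbered 2 it was 0.53 and within those numbered 1 it was 0.51. Its other probe sets had 0.39 and -0.03. Leaving out any 1 sample gave 0.48 to 0.57.

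Mx2 averaged 341 ± 75.7 in GDNF and 481 ± 109 in control samples (SD, n = 2 each). Its log2 fold change was -0.49 (SE 0.20), with a limma p of 0.0439 and an adjusted p of 0.999. Within the samples numbered 2 it was -0.49 and within those numbered 1 it was -0.50. Leaving out any 1 sample gave -0.73 to -0.26. Psmb9, a catalytic subunit of the immunoproteasome, had a signal of 381 and 453 in GDNF replicates 2 and 1, and 515 and 559 in control replicates 2 and 1 (-0.37, SE 0.13, limma adjusted p = 0.999). Ifi35 had 134 and 150.1 in GDNF replicates 2 and 1, and 170.1 and 198 in control replicates 2 and 1 (-0.37, SE 0.15). For these 3 genes the groups did not overlap. Tap2, the partner of Tap1, had 25.7 and 34.0 in GDNF replicates 2 and 1, and 41.6 and 45.6 in control replicates 2 and 1 (-0.54, SE 0.25). Stat2 had 75.0 and 95.8 in GDNF replicates 2 and 1, and 112 and 111 in control replicates 2 and 1 (-0.39, SE 0.18), with -0.12 and overlap in its dimmer probe set. Parp9, an ADP-ribosyltransferase that acts with Dtx3l, had 664 and 656 in GDNF replicates 2 and 1, and 719 and 834 in control replicates 2 and 1 (-0.23, SE 0.11). With the related Parp14 (-0.20) and Usp18 (-0.11), these made up the 8 genes lower in both GDNF samples. Irf9 had -0.19 with overlap, and -0.45 without overlap in its dimmer probe set. With any 1 sample left out, the fold change ran from -0.74 to -0.35 for Tap2 and from -0.49 to -0.24 for Psmb9. It ran from -0.57 to -0.22 for Stat2 and from -0.34 to -0.12 for Parp9.

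Some genes with a wide difference by number had wide errors by treatment. The fit had no term for the number, so it counts that difference as spread. Herc6 had the lowest log2 fold change of the 39, -0.59 (SE 0.53), and was 0.29 once GDNF replicate 2 was omitted. It was 0.23 within number 1 and -1.42 within number 2. Irf7 had -0.48 (SE 0.33), Ifi44 -0.40 (SE 0.24) and Irgm -0.38 (SE 0.29), all with overlap. Leaving out any 1 sample gave -0.93 to -0.04 for Irf7, -0.77 to -0.03 for Ifi44 and -0.73 to -0.04 for Irgm. Within number 1 and number 2, Irf7 had -0.53 and -0.43, Ifi44 -0.60 and -0.21, and Irgm -0.41 and -0.36. Isg15 had -0.35 (SE 0.32), Mx1 -0.33 (SE 0.44) and Rsad2 0.01 (SE 0.47), and these 3 changed sign when a single sample was left out. Their values within number 1 and number 2 were -0.31 and -0.39, -0.08 and -0.57, and -0.06 and 0.08, in that order. The 5 members with a higher mean in GDNF were Dhx58, Irf1 (0.09), Ifitm1 (0.09), Cmpk2 (0.02) and Rsad2.

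**Figure D5:**
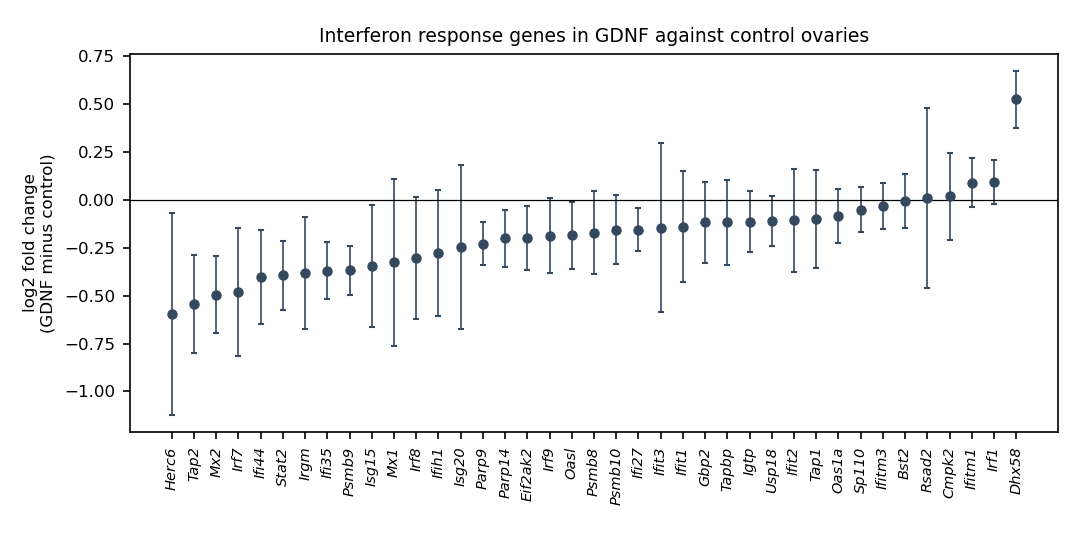
Log2 fold change of the 39 genes between GDNF and control samples (points), with limma's moderated standard error (bars), ordered by value. 34 of the 39 points lie below 0, and Dhx58 is highest at 0.52.

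For the 10 dimmer probe sets of these genes that passed the filter, the median log2 difference was -0.45 by number, with 7 lower without overlap and 0 higher (against 22.6% and 20.9% of all probe sets tested), and -0.19 by treatment. They share the arrays of the brighter probe sets and are not a further replicate. The other interferon-induced genes had a median log2 fold change of -0.12 between GDNF and control samples. Of the 45, 34 were lower in GDNF, against 51.5% of all probe sets tested and 51.4% with 1 per gene. In limma 0 passed the adjusted threshold, and 4 had an unadjusted p under 0.05 (against 2.73% and 3.12%). The gene with the lowest value was Lgals3bp, a secreted glycoprotein, with 459.6 and 664 in GDNF replicates 2 and 1, and 696 and 873 in control replicates 2 and 1 (-0.50). Macrophage markers had a median of -0.16 by treatment, with 12 of 17 lower in GDNF (against 51.5%) and none passing the adjusted threshold in limma. All 7 surface epithelium markers were lower in the GDNF mean and all 7 oocyte markers higher, with medians of -0.23 and 0.39, and none of these passed it either. Their part in the treatment values of the interferon response genes was not tested.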

How the data were processed

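One Affymetrix rat array was hybridised for each of the 4 samples. The deposited values are linear intensities (signals) made by the authors with MAS5, a tool the submitters' processing notes name without a version. MAS5 scales every array: with 2% of probe sets trimmed at both ends, the array means lay within 125.03 to 125.04. A shift shared by all transcripts would therefore not show. Detection calls were not used here. The number of arrays limits the precision.

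Groups follow the sample titles. From 31099 probe sets, 57 Affymetrix controls were removed. Analysis used log2(signal + 1) and tested the 18625 probe sets above the 40th percentile of mean level. GEO's platform annotation gave 1 symbol to 20826 probe sets, several to 436 and none to 9780. The 39 symbols are the same in RefSeq GRCr8. Treatment was tested with limma 3.58.1 under R 4.3.3 (eBayes with a trend, two-sided, Benjamini-Hochberg over all probe sets tested, threshold 0.05), and SE is limma's. The script was tested on simulated data. An exact permutation test of 2 against 2 samples cannot go below p = 0.333. Replicate numbers were compared as values, with no test. No overlap means that both samples of one side lie beyond both of the other.

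The members and lists were chosen with earlier results of these data known. Each sample's value is given for the 8 brightest members, the 10 with the widest difference by number and the 8 with the widest by treatment, and from other pathway lists some of the brightest, highest and lowest genes are named. Ifi35, Cxcl11, Ifnb1, Ifng, Ifnar2 and the single cell type markers were picked after their values were seen. The settings tried instead were another pseudocount (16), another filter (none, or the 60th percentile), quantile normalization or median centring, eBayes with no trend, a block for replicate number, a single probe set or the average of all for each gene, and 3 of the 4 samples. The settings for single genes by number, and for the other interferon-induced genes, were added after the data were seen.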

Additional observations from a re-analysis of the deposited data

How the results depend on the processing

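No interferon response gene passed the adjusted threshold under any alternative run. Over all probe sets, 0 were called in the fit with group alone and 8 with the replicate number as a block. That blocked fit had 1 residual degree of freedom, and its smallest limma adjusted p among the 39 genes was 0.102, for Mx2. In it 11 of the 39 had an unadjusted limma p under 0.05, against 1355 of the 18625 probe sets tested. With group alone these counts were 4 and 508. Deviations of same-numbered samples correlated at r = 0.32 over all probe sets, and what the number stands for is not given in the labels. With 1 sample left out, the count of the 39 genes with a higher mean in GDNF ran from 3 to 20 (5 with all samples), their median log2 fold change from -0.38 to 0.04 and their median difference by number from -0.43 to -0.23. Under the other alternatives the median fold change lay between -0.19 and -0.15 and the median by number between -0.29 and -0.15, the last with median centring. Of the 9 genes at least 1.5-fold lower in number 2 (0.585 in log2), some depended on the processing. Ifit2 and Irgm had -0.54 and -0.5837 with a pseudocount of 16, and Ifit2 had -0.577 with quantile normalization. With 1 sample left out, Herc6, Irf7, Irgm and Ifit2 came as close to 0 as -0.22, -0.57, -0.46 and -0.47. Single fold changes that changed sign with 1 sample left out ran from -0.20 to 0.19 for Bst2, -0.43 to 0.19 for Gbp2, -1.47 to 0.29 for Herc6, -0.60 to 0.0419 for Ifih1, -0.47 to 0.26 for Ifit2, -0.70 to 0.41 for Ifit3, -0.0653 to 0.24 for Ifitm1, -0.15 to 0.0834 for Ifitm3, -0.77 to 0.0742 for Isg15, -0.93 to 0.44 for Isg20, -0.99 to 0.34 for Mx1 and -0.63 to 0.65 for Rsad2. Leaving out 1 sample unbalances the replicate numbers between the treatments. Bst2 also turned to 0.0106 with median centring, which moves every fold change by the same amount. With 2 samples a group and no detection calls, the values of Irf8, Ifih1, Herc6 and Tap2, which are near the filter, are the least certain.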
